A study of Homo sapiens with 8 samples.

Results

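The tropomyosins and the proteins that bind, cross-link or pull on actin filaments were followed through PAI-1 knock-down in a pair of bladder cancer cell lines. The genes TPM1, TPM2, TPM3, TPM4, ACTN1, ACTN4, MYL9, TAGLN, TAGLN2 and CALD1 were taken by their symbol in the deposited expression table, and all 10 were found among 27475 human genes. The group was chosen by the level of TPM4, which was higher after PAI-1 knock-down in UM-UC-3 cells, and by what the genes encode, so the values of these genes in that comparison are a description and carry no test. All 10 genes were above 0 in every library.

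The RNA came from UM-UC-3 and RT112, which are established lines of human bladder cancer. Either line was given 100 pmol of siRNA for 72 h, either 3 pooled siRNAs that target PAI-1 (siPAI-1) or 3 pooled scrambled ones (Scr), so every group was transfected and none was left untreated. Each of the 4 groups has 2 libraries, numbered replicate 1 and 2, and the labels do not say whether these came from separate cultures. The tests measure the spread between these libraries. The lines were kept in RPMI or DMEM, the labels do not say which line had which, and line and medium cannot be told apart. Each is a single line, so a difference between them holds for UM-UC-3 and RT112 and not for classes of bladder cancer. The values are in TPM, a unit that corrects a gene's reads for its length and gives all libraries an equal sum. Levels of genes can thus be set side by side within a library. Between libraries, and above all between the lines, a TPM value also depends on the levels of the other genes.

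Actin filaments in non-muscle cells are coated by tropomyosins, coiled-coil dimers that lie along the filament and govern which other proteins can bind it. Alpha-actinins cross-link filaments into bundles, myosin II pulls on them after phosphorylation of its regulatory light chain, and caldesmon and the transgelins bind along the filament and are best known from smooth muscle. Many of these genes are classical targets of serum response factor (SRF) and its coactivators of the MRTF family, which sense the pool of free actin.

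In RefSeq (GRCh38.p14) all 10 are protein-coding genes, and TPM1 lies at chr15:63042747-63071915, TPM2 at chr9:35681993-35690056, TPM3 at chr1:154155308-154192100 and TPM4 at chr19:16067538-16103002. TAGLN lies at chr11:117199294-117207465, TAGLN2 at chr1:159918111-159925507, MYL9 at chr20:36541519-36551447, CALD1 at chr7:134711499-134970729, ACTN1 at chr14:68874128-68979302 and ACTN4 at chr19:38647649-38731589. RefSeq gave promoter windows for 8 of the 10 genes, and no window was given for MYL9 and TAGLN. For 4 of them the 250 bases before a RefSeq transcription start are printed here, 5′ to 3′. TPM1, TPM2 and TPM4 are shown because the results turn on these tropomyosins, and TPM4 and ACTN1 because their windows hold a CArG box, the 10-base motif that SRF binds. Capitals mark the CArG box, written CC, 6 bases of A or T, then GG.
TPM1 (chr15:63048239-63048488, plus strand): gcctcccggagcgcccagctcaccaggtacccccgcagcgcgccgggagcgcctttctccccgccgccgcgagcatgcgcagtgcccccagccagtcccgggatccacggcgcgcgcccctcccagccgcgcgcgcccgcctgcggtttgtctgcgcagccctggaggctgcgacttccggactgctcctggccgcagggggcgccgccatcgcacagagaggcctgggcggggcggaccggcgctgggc
TPM2 (chr9:35690057-35690306, minus strand): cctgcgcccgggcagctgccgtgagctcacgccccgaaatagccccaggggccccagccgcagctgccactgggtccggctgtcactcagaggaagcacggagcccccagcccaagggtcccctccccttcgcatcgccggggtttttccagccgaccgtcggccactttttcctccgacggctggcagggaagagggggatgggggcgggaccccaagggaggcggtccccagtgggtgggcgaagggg
TPM4 (chr19:16067288-16067537, plus strand): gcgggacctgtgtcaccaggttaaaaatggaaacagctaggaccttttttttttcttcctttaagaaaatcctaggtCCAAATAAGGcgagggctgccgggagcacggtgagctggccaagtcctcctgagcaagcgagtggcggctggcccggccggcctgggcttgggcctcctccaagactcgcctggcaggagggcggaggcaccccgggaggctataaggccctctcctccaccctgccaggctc
ACTN1 (chr14:68977567-68977816, minus strand): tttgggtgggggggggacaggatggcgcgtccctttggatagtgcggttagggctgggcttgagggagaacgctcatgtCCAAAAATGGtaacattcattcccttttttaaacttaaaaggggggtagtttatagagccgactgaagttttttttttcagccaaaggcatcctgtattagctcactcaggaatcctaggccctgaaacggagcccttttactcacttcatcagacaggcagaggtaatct
The ACTN1 window belongs to the third of 4 starts in the RefSeq table and lies inside the gene, downstream of its first start. The TPM1 window belongs to the only start given for it, which also lies inside the gene span above. Both starts given for TPM3 lie inside its span as well. The bases before the 5′ ends of the TPM1 and TPM3 spans were not searched. The TPM4 window belongs to the first of 3 starts. A CArG box was found in 2 of 21 windows of 300 bases over the 8 genes (250 before and 50 after each start), against 1.29% of 35116 windows of all genes. In TPM4 it was CCAAATAAGG at chr19:16067365-16067374, beginning at position -173 from the start, and in ACTN1 it was CCAAAAATGG at chr14:68977728-68977737, beginning at position -171. TATAAA, searched on both strands, was found in 2 of the 21 windows against 11.5% of all windows, and CATTCC, the site of TEAD factors, in 3 of them against 14%. These are matches of letters, and binding at these sites was not measured here.

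The estimated depth was between 29.3 and 34.2 M reads per library. RT112 siPAI-1 replicate 1 stood apart. It had 31 genes at least 1.5-fold above and 49 at least 1.5-fold below all 3 other RT112 libraries, of 8387 genes averaging 10 TPM or more, while the other 3 RT112 libraries had 2 genes above and between 5 and 15 below. Among those 49 genes were 4 of the 10, namely TPM1, MYL9, TAGLN and CALD1. The log2 differences of these 4 genes, in RT112 and between the lines, are also given without this library.

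The epithelial markers were higher in RT112, and of the mesenchymal markers VIM and ZEB1 were higher in UM-UC-3 while FN1 was higher in RT112. Summed over EPCAM, CDH1, KRT8, KRT18 and KRT5, the epithelial markers had between 206.7 and 225 TPM in UM-UC-3 and between 5287 and 5995 TPM in RT112. VIM, the gene of vimentin, had a mean of 2990 TPM in UM-UC-3 and 7.06 TPM in RT112, and the summed mesenchymal markers (VIM, CDH2, ZEB1 and FN1) lay between 2976 and 3260 TPM and between 72.4 and 147 TPM. The sum in UM-UC-3 was mostly VIM. FN1, fibronectin, had a mean of 65.9 TPM in UM-UC-3 and 99.9 TPM in RT112 (log2 difference -0.55, limma adjusted p = 0.0315), and CDH2, N-cadherin, 11.2 and 16.1 TPM (log2 difference -0.43, limma adjusted p = 0.243). Of 8 smooth muscle markers, DES and CNN1 were listed at 0 in all RT112 libraries, MYH11 reached at most 0.54 TPM in any library, and SMTN made up most of the sum of 15.8 to 22.1 TPM in RT112 and 42.9 to 50.2 TPM in UM-UC-3. PTPRC, the defining leukocyte marker, reached at most 0.03 TPM. Of the leukocyte list, CD68, a lysosomal gene that other cells also express, made up nearly all of the summed 272 to 279.5 TPM in UM-UC-3 and 14.3 to 19.7 TPM in RT112. The 7 luminal urothelial markers summed to between 6.6 and 7.44 TPM in UM-UC-3 and between 305 and 357 TPM in RT112. Nearly all of the RT112 sum was GATA3, FOXA1, PPARG and UPK2. KRT20, UPK1A and UPK3A had means of only 1.16, 0.858 and 0.02 TPM there. The fibroblast markers summed to between 5.56 and 7.05 TPM in UM-UC-3 and between 17.8 and 25.5 TPM in RT112. The RT112 sum was mostly LUM and COL1A1, with means of 14.4 and 6.38 TPM there. DCN, PDGFRB and FAP were higher in UM-UC-3, at means of 1.075 TPM or less. The part of these marker levels in the results on the actin genes was not tested.

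The first comparison asks how the lines differ in these genes, over both siRNAs. Of the 10 genes, 8 differed between UM-UC-3 and RT112 with no overlap between the 4 libraries of each line. TPM1, TPM2, TPM4 and CALD1 were higher in UM-UC-3, and TPM3, MYL9, TAGLN and TAGLN2 were higher in RT112. ACTN1 and ACTN4 overlapped between the lines. The difference was tested with limma on log2(TPM + 0.1) in a model of line and siRNA over all 8 libraries, with Benjamini-Hochberg adjustment over 20274 genes, and a gene is called at an adjusted p under 0.05. The lines differ widely, and 30.9% of all genes were called higher in UM-UC-3 and 29.7% higher in RT112 (60.6% in either direction), so 4 of 10 in each direction is near the share of all genes, and the count says nothing particular about this group. The difference was at least 1 on the log2 scale for 7 of the 10 genes, against 37.1% of 12803 genes averaging 1 TPM or more. These differences are means over both siRNAs. In the Scr libraries alone TPM1 was under 1, with a log2 difference of 0.87, and in the siPAI-1 libraries alone it had 1.85. CALD1 had 1.37 and 2.23 in the same order, and TAGLN -6.99 and -5.56. The median log2 difference of the 10 genes was 0.10, against 0.03 over all genes.

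**Figure D1:**
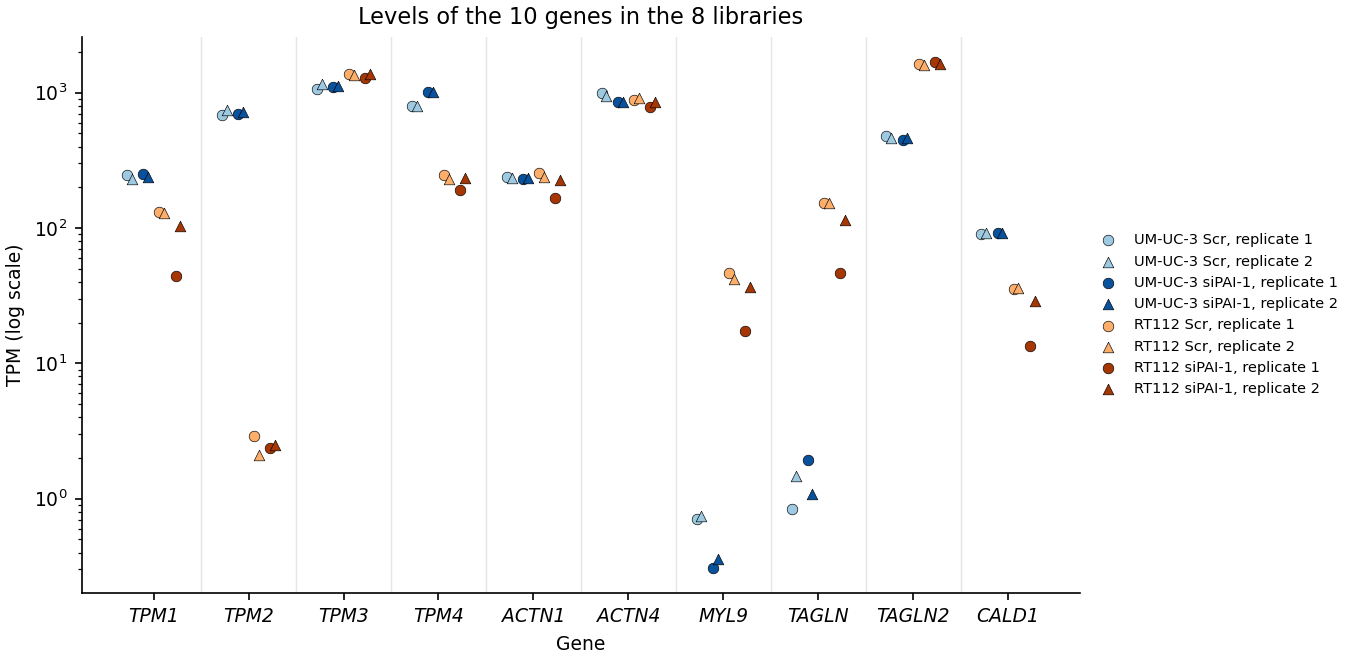
TPM of each of the 10 genes (horizontal axis) on a log scale (vertical axis), with 1 point per library, coloured by group and shaped by replicate. TPM2 sits near 700 TPM in UM-UC-3 and between 2.11 and 2.92 TPM in RT112, MYL9 and TAGLN show the opposite order, and ACTN1 and ACTN4 overlap.

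TPM2, which encodes beta-tropomyosin, set the lines apart most. In UM-UC-3 it had 682 and 751 TPM under Scr and 701 and 717 TPM under siPAI-1. In RT112 it had 2.92 and 2.11 TPM under Scr and 2.35 and 2.51 TPM under siPAI-1. The lines did not come near each other, and the mean was 288-fold higher in UM-UC-3 (log2 difference 8.12, SE 0.09, limma adjusted p = 3.91e-10). By the size of this difference TPM2 ranked 28 among the genes higher in UM-UC-3 and 141 in either direction, of 12803 genes averaging 1 TPM or more. The RT112 values rest on few reads, an upper estimate of between 64 and 91 per library.

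TPM4, a tropomyosin of non-muscle cells, was 4.02-fold higher in UM-UC-3 (log2 difference 2.00, SE 0.11, limma adjusted p = 6.68e-07). This is a mean over both siRNAs, and the choice of TPM4 used its UM-UC-3 values. The log2 difference was 1.74 in the Scr libraries alone and 2.26 in the siPAI-1 libraries alone. TPM4 had between 797 and 1017 TPM in UM-UC-3. In RT112 it had 246 and 229.6 TPM under Scr and 192 and 234 TPM under siPAI-1. TPM1, which encodes alpha-tropomyosin, was 2.36-fold higher in UM-UC-3 (log2 difference 1.36, SE 0.28, limma adjusted p = 0.00261), with a narrow range from 231 to 250.4 TPM there and a wide one from 43.96 to 131 TPM in RT112. Without RT112 siPAI-1 replicate 1 the log2 difference of TPM1 was 1.02.

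TPM3, another non-muscle tropomyosin, was the most abundant tropomyosin in both lines and differed least. It had between 1061 and 1159 TPM in UM-UC-3 and between 1279 and 1386 TPM in RT112. The ranges were apart, and the mean was 1.21-fold higher in RT112 (log2 difference -0.27, SE 0.04, limma adjusted p = 0.000396).

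Together the tropomyosin genes had between 2785 and 3101 TPM in UM-UC-3 and between 1517 and 1745 TPM in RT112. Their make-up differed more than their sum. In UM-UC-3, TPM3 took 35.9% to 39.5% of the tropomyosin TPM, TPM4 27.1% to 33.1%, TPM2 22.8% to 25.6% and TPM1 7.66% to 8.8%. In RT112, TPM3 took 78.2% to 84.3%, TPM4 12.7% to 14.1%, TPM1 2.9% to 7.6% and TPM2 0.123% to 0.167%. UM-UC-3 thus held a mixture of 3 major tropomyosin genes with TPM1 as a minor one, and RT112 held mostly TPM3. Tropomyosin genes resemble each other in sequence, and the submitters' processing notes name RSEM, which divides reads shared between similar genes by estimate, so the levels carry that uncertainty.

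**Figure D2:**
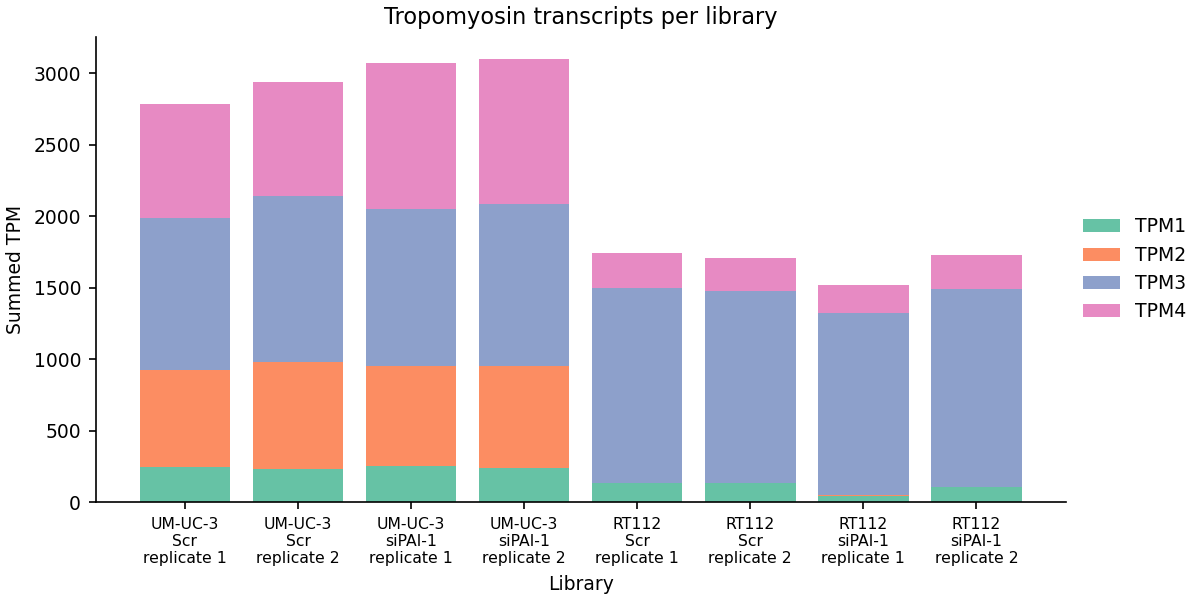
Summed TPM of TPM1, TPM2, TPM3 and TPM4 (vertical axis, stacked by gene) in each of the 8 libraries (horizontal axis). The UM-UC-3 bars reach 2785 to 3101 TPM with TPM2 and TPM4 as large parts, and the RT112 bars reach 1517 to 1745 TPM and are mostly TPM3.

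The alpha-actinins, which cross-link filaments, overlapped between the lines. ACTN4 had between 852 and 1001 TPM in UM-UC-3 and between 780.1 and 914 TPM in RT112, with a log2 difference of 0.09 (95% interval 0.00 to 0.18, limma adjusted p = 0.0758). ACTN1 had between 229 and 239.8 TPM in UM-UC-3 and between 168 and 254 TPM in RT112, with a log2 difference of 0.10 (95% interval -0.13 to 0.33, limma adjusted p = 0.419). Neither passed the threshold, and the intervals bound any difference to less than 0.33 on the log2 scale in favour of UM-UC-3. ACTN1 turned to -0.02 without RT112 siPAI-1 replicate 1. ACTN4 passed the threshold without RT112 siPAI-1 replicate 2 (log2 difference 0.12, limma adjusted p = 0.0226) and with FPKM in place of TPM (0.12, limma adjusted p = 0.0268). ACTN4 made up 78.4% to 80.7% of the alpha-actinin TPM in UM-UC-3 and 77.6% to 82.3% in RT112.

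MYL9, a regulatory light chain of myosin II, and TAGLN, which encodes transgelin (SM22), were low in UM-UC-3 and well expressed in RT112. MYL9 had 0.71 and 0.75 TPM under Scr and 0.31 and 0.36 TPM under siPAI-1 in UM-UC-3. In RT112 it had 46.7 and 42.3 TPM under Scr and 17.4 and 36.8 TPM under siPAI-1. Its mean was 67.2-fold higher in RT112 (log2 difference -5.81, SE 0.22, limma adjusted p = 1.02e-07).

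TAGLN had 0.84 and 1.46 TPM under Scr and 1.92 and 1.09 TPM under siPAI-1 in UM-UC-3. In RT112 it had 153 and 154 TPM under Scr and 46.8 and 114 TPM under siPAI-1. No library of one line came near the other, and the mean was 88.1-fold higher in RT112 (log2 difference -6.27, SE 0.39, limma adjusted p = 1.56e-06). Without RT112 siPAI-1 replicate 1 the log2 difference between the lines was -6.01 for MYL9 and -6.67 for TAGLN. The UM-UC-3 values rest on an upper estimate of 20 to 46 reads per library for MYL9 and 64 to 168 for TAGLN.

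TAGLN2, the transgelin of non-muscle cells, was also higher in RT112 but abundant in both lines. It had between 448 and 476 TPM in UM-UC-3 and between 1604 and 1685 TPM in RT112, which is 3.54-fold higher (log2 difference -1.82, SE 0.03, limma adjusted p = 3.11e-09). TAGLN took 0.176% to 0.427% of the TPM of both transgelin genes in UM-UC-3 and 2.7% to 8.77% in RT112. CALD1, which encodes caldesmon, went the other way. It had between 91 and 92.5 TPM in UM-UC-3, and in RT112 it had 35.2 and 35.8 TPM under Scr and 13.3 and 28.9 TPM under siPAI-1. The mean was 3.25-fold higher in UM-UC-3 (log2 difference 1.80, SE 0.25, limma adjusted p = 0.000247). Without RT112 siPAI-1 replicate 1 the log2 difference of CALD1 was 1.49.

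The order of levels was not the same in the lines. In UM-UC-3 it ran TPM3, ACTN4, TPM4, TPM2, TAGLN2, TPM1, ACTN1, CALD1, TAGLN and MYL9, where ACTN4 and TPM4 overlapped, as did TPM1 and ACTN1. In RT112 it ran TAGLN2, TPM3, ACTN4, TPM4, ACTN1, TAGLN, TPM1, MYL9, CALD1 and TPM2, where TPM4 overlapped ACTN1, TAGLN overlapped TPM1, TPM1 overlapped MYL9 and MYL9 overlapped CALD1, and TPM2 lay apart below them. The sum of the 10 genes overlapped between the lines, at 0.459% to 0.474% of the TPM of a library in UM-UC-3 and 0.423% to 0.475% in RT112, with the lowest value in RT112 siPAI-1 replicate 1.

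**Figure D3:**
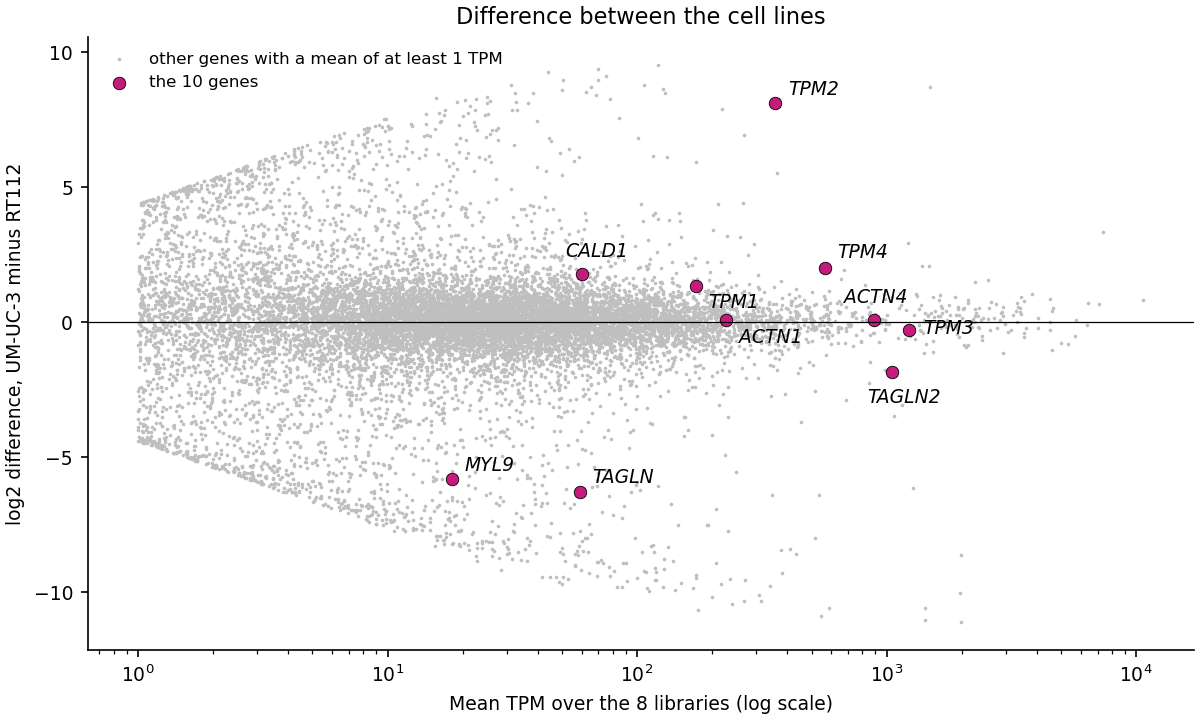
Log2 difference between UM-UC-3 and RT112 (vertical axis) against the mean TPM over the 8 libraries (horizontal axis, log scale) for genes averaging 1 TPM or more, with the 10 genes in colour. TPM2 lies at 8.12 near the upper edge of the cloud, MYL9 and TAGLN at -5.81 and -6.27 in its lower part, and ACTN1 and ACTN4 on the line at 0.

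The same line comparison was read for 5 further lists of actin genes, chosen with results of these data known. Of all genes, 30.9% were called higher in UM-UC-3 and 29.7% higher in RT112. In a fit of the 12803 genes averaging 1 TPM or more, 5164 were called higher in UM-UC-3 and 4932 higher in RT112. Among filament turnover and capping genes, 11 of 14 were called higher in UM-UC-3 and 1 higher in RT112, with a median log2 difference of 0.42 against 0.03 over all genes. PFN2, a profilin that binds actin monomers, had a log2 difference of 1.43 (limma adjusted p = 2.55e-08) and CFL2, a cofilin that severs filaments, one of 1.39 (limma adjusted p = 2.1e-08). TMOD3, a tropomodulin that caps the pointed end of tropomyosin-coated filaments, was the one called higher in RT112 (log2 difference -0.88, limma adjusted p = 1.63e-06).

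Myosin II and its regulators were split, with 4 of 12 called in each direction and a median of 0.05. MYH14 and MYH10, both non-muscle myosin heavy chains, had 76.0 and 43.4 TPM on average in RT112 and 1.13 and 3.66 TPM in UM-UC-3 (log2 differences -5.98 and -3.55, limma adjusted p = 6.63e-09 and 7.16e-08). MYLK, the kinase of the regulatory light chain, had 29.2 TPM in UM-UC-3 and 1.75 TPM in RT112 (log2 difference 4.14, limma adjusted p = 1.32e-05), and ROCK2, a kinase that acts on the same light chain and its phosphatase, differed by 0.73 (limma adjusted p = 1.86e-05). RT112, the line with more MYL9, had less MYLK.

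Of the 6 actins, ACTB was called higher in UM-UC-3 (7973 against 4834 TPM, log2 difference 0.72, limma adjusted p = 7e-06), and ACTA2 and ACTG2 higher in RT112. ACTA2, smooth muscle alpha-actin, had a mean of 7.6 TPM in UM-UC-3 and 13.2 TPM in RT112 (log2 difference -0.79, limma adjusted p = 0.00109), and ACTG2, smooth muscle gamma-actin, 0.178 and 2.21 TPM (log2 difference -3.45, limma adjusted p = 0.00249). Their median log2 difference was -0.25. Cross-linkers and adhesion linkers had 6 of 14 called in each direction with a median of 0.02. ZYX, the focal adhesion protein zyxin, and TLN1, the integrin-binding talin, were higher in UM-UC-3 by 1.29 and 0.73 on the log2 scale (limma adjusted p = 8.09e-08 and 9.18e-06), while the bundling proteins LCP1 and PLS1 were higher in RT112 (log2 differences -5.34 and -2.14, limma adjusted p = 2.9e-06 and 1.64e-06).

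Calponins and SRF regulators had 4 of 10 called higher in UM-UC-3 and 3 higher in RT112, with a median of 0.02. CNN3, a calponin of non-muscle cells, had a mean of 200.1 TPM in UM-UC-3 and 1.77 TPM in RT112 (log2 difference 6.83, limma adjusted p = 3.7e-08), while CNN2 had 158 and 256 TPM (log2 difference -0.69, limma adjusted p = 2.67e-05). MYOCD, the SRF coactivator myocardin, had 4.89 TPM in UM-UC-3 and 0.205 TPM in RT112 (log2 difference 4.04, limma adjusted p = 2.83e-06), and MKL2, the coactivator MRTF-B, 9.36 and 16.99 TPM (log2 difference -0.87, limma adjusted p = 0.000303). SRF itself had 24.5 TPM in UM-UC-3 and 24.1 TPM in RT112 and did not pass the test (log2 difference 0.02, limma adjusted p = 0.751). SRF was looked up after its values were seen.

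**Figure D4:**
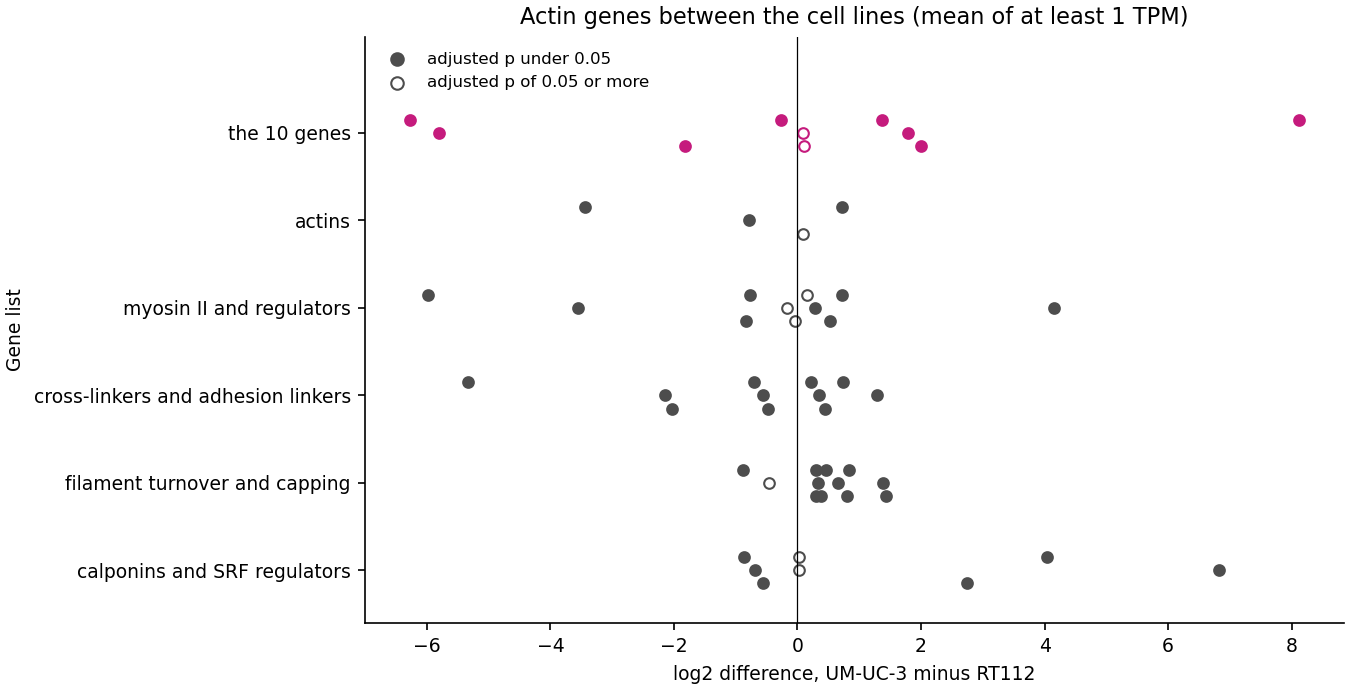
Log2 difference between UM-UC-3 and RT112 (horizontal axis) for the 10 genes and for the genes averaging 1 TPM or more in 5 further actin lists (rows, with points spread vertically only to keep them apart). Filled points had an adjusted p under 0.05 in limma. Most turnover and capping genes lie to the right of 0, and the points of the other lists lie on both sides.

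The second comparison asks how siPAI-1 and Scr libraries differed in RT112, a contrast that the choice of genes did not use. Of the 10 genes, 6, namely TPM1, ACTN1, ACTN4, MYL9, TAGLN and CALD1, had both siPAI-1 libraries below both Scr libraries, and no gene had both above. Among 12198 genes averaging 1 TPM or more in RT112, 17.3% had both siPAI-1 libraries below and 20% above. None of the 10 genes passed the test in this line. In limma over 18437 genes, 0 genes were called at an adjusted p under 0.05 (0.0% of all), while an unadjusted p under 0.05 was reached by 617 genes that were higher and 446 that were lower, and none of the 10 genes was among these. The median log2 difference of the 10 genes was -0.25, against 0.01 over all genes, -0.10 against 0.01 without siPAI-1 replicate 1, and -0.43 against 0.01 without siPAI-1 replicate 2. In bulk RNA, fewer cells that express a gene and less RNA per cell cannot be told apart.

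TAGLN, TPM1, CALD1 and MYL9 had the lowest values relative to Scr. TAGLN had 30.5% of the Scr mean in siPAI-1 replicate 1 and 74.3% in replicate 2. In replicate 1 this was rank 2 from the lowest of 8387 genes averaging 10 TPM or more, and in replicate 2 it was rank 88. The direction was shared by both libraries and the size was not, with a log2 difference of -1.07 (SE 0.42, limma adjusted p = 0.838) that became -0.43 without replicate 1.

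TPM1 had 131 and 129.9 TPM under Scr and 43.96 and 103 TPM under siPAI-1, which is 33.7% and 79.3% of the Scr mean (ranks 3 and 184). Its log2 difference was -0.95 (95% interval -2.03 to 0.13, limma adjusted p = 0.838), and -0.33 without replicate 1. CALD1, caldesmon, had 37.6% and 81.3% of the Scr mean (ranks 5 and 248), and MYL9, the light chain, 39.2% and 82.6% (ranks 9 and 312). Their log2 differences were -0.85 and -0.81 (limma adjusted p = 0.838 for both), and -0.30 and -0.27 without replicate 1. In replicate 1 these 4 genes thus stood at the bottom of the list, and in replicate 2 their ranks were between 88 and 312.

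The alpha-actinins were lower by less. ACTN1 had 254 and 238 TPM under Scr and 168 and 226 TPM under siPAI-1 (log2 difference -0.34, limma adjusted p = 0.838), and -0.12 without replicate 1. ACTN4 had 881 and 914 TPM under Scr and 780.1 and 854 TPM under siPAI-1 (log2 difference -0.14, limma adjusted p = 0.838), and -0.07 without replicate 1. Both genes had their siPAI-1 libraries below their Scr libraries, with gaps that were small beside the spread within siPAI-1.

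The other tropomyosins and TAGLN2 overlapped between siPAI-1 and Scr in RT112. TPM4 had 80.8% and 98.5% of the Scr mean, TPM3 94.3% and 102%, TPM2 93.4% and 99.8%, and TAGLN2 104% and 100%. The limma log2 differences were -0.16 for TPM4, -0.03 for TPM3, -0.03 for TPM2 and 0.03 for TAGLN2, with adjusted p between 0.838 and 0.987. Without replicate 1, TPM4 was at -0.02, and TPM2 turned to 0.01 and TPM3 to 0.03. TPM1 was 7.5% and 7.6% of the tropomyosin TPM under Scr and 2.9% and 5.99% under siPAI-1, while TAGLN was 8.54% and 8.77% of the transgelin TPM under Scr and 2.7% and 6.57% under siPAI-1.

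**Figure D5:**
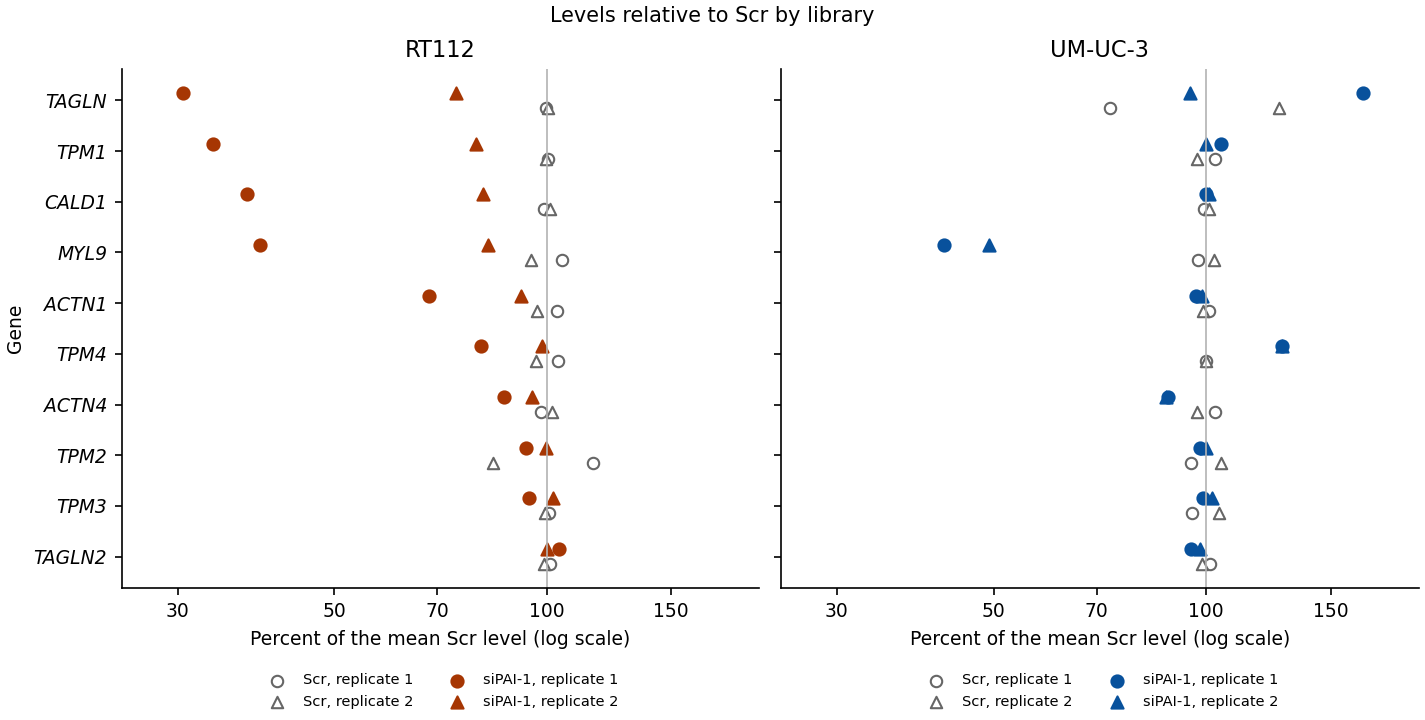
Level of each gene in each library as a percent of the mean Scr level of its line (horizontal axis, log scale), for the 10 genes (rows) in RT112 and UM-UC-3 (panels). Open symbols are Scr and filled ones siPAI-1 libraries, with circles for replicate 1 and triangles for replicate 2. In RT112 the siPAI-1 circles of TAGLN, TPM1, CALD1 and MYL9 lie between 30.5% and 39.2% and the triangles between 74.3% and 82.6%, and in UM-UC-3 both siPAI-1 points of TPM4 lie at 128%.

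In RT112 siPAI-1 replicate 1, FN1, which encodes fibronectin, had 50% of the Scr mean and CDH2, N-cadherin, 39.5%, and replicate 2 had 93.1% and 92.5%. Of the other mesenchymal markers, VIM had 90.7% and 117% and ZEB1, at 0.26 TPM or less, 93.3% and 116%. ACTG2, smooth muscle gamma-actin, had 27.6% and 70.7%, at only 0.82 to 3.02 TPM. Other smooth muscle genes did not go one way, as ACTA2 had 98.4% and 122% and SMTN 82.0% and 111%. At 0.31 TPM or less in RT112, MYOCD had 61.5% and 53.8% and SYNPO2 66.7% in both. MYH11 and LMOD1, also at 0.31 TPM or less there, had 277% and 138%, and 533% and 200%. The summed epithelial markers lay between 5825 and 5995 TPM under Scr and between 5287 and 5812 TPM under siPAI-1. The luminal markers lay between 305 and 309.5 TPM under Scr and between 311 and 357 TPM under siPAI-1, and the part of these shifts in the results on the 10 genes was not tested. The further actin lists had no gene called in RT112. Of the 12198 genes averaging 1 TPM or more in RT112, 17.3% had both siPAI-1 libraries below both Scr libraries and 20% above. Among list genes at this level, both were below for 3 of 4 actins and 4 of 7 calponins and SRF regulators. The same held for 4 of 11 cross-linkers and adhesion linkers, 4 of 12 turnover and capping genes and 3 of 11 myosin II genes. The one gene with both above was in the list of calponins and SRF regulators. Setting replicate 2 alone against Scr, the counts were 3, 4, 5, 4 and 4, under a looser rule by which 31.2% of all genes were below.

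The third comparison is siPAI-1 against Scr in UM-UC-3, which chose the group and is described without a test. TPM4 had 797 and 797 TPM under Scr and 1017 and 1016 TPM under siPAI-1, so its means were 796.7 ± 0.141 and 1017 ± 0.375 TPM (SD, n = 2) and the level was 27.6% higher (log2 difference 0.35). The replicates of TPM4 lay much closer together than those of the other tropomyosins. In FPKM, the deposited unit that is not rescaled to a common sum, the same libraries had 542 and 565 under Scr and 704 and 702 under siPAI-1. TPM4 took 28.6% and 27.1% of the tropomyosin TPM under Scr and 33.1% and 32.8% under siPAI-1. In RT112 its values were 246 and 229.6 TPM under Scr and 192 and 234 TPM under siPAI-1, and the difference between the lines in this contrast was not tested because the choice of TPM4 used it.

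Among the other 9 genes, ACTN1, ACTN4, MYL9 and TAGLN2 had both siPAI-1 libraries below both Scr libraries in UM-UC-3. Over 12067 genes averaging 1 TPM or more in this line, 17.4% had both siPAI-1 libraries above and 20.4% below, and nothing is read from the counts here. ACTN4 had 1001 and 945 TPM under Scr and 860.3 and 852 TPM under siPAI-1, which is 12.0% lower by the means. MYL9 went from 0.71 and 0.75 TPM to 0.31 and 0.36 TPM, from an upper estimate of 40 and 46 reads to 20 and 20. ACTN1 and TAGLN2 differed by -2.28% and -3.37%.

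TPM1, TPM2, TPM3, TAGLN and CALD1 overlapped between siPAI-1 and Scr in UM-UC-3. TPM1, TPM2, TPM3 and CALD1 had log2 differences of 0.04, -0.01, 0.01 and 0.01. CALD1 had 91 and 92.5 TPM under Scr and 91.9 and 92.4 TPM under siPAI-1. The genes that were lowest in RT112 siPAI-1 replicate 1 either overlapped between siPAI-1 and Scr in UM-UC-3, as TPM1 and CALD1 did, or were at 0.31 to 1.92 TPM there, as TAGLN and MYL9 were.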

How the data were processed

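The libraries were placed in their groups by line, siRNA and replicate from the labels. The study describes 3 independent knock-down experiments, and the 2 libraries per group analysed here are not matched to these by the labels. Gene-level TPM and FPKM tables, with values to 2 decimals, were deposited by the authors for 27567 entries, of which 92 spike-ins at 0 in all libraries were left out. The submitters' processing notes name STAR 2.5.0, RSEM 1.2.25 and GRCh38, while the methods name cutadapt, STAR, featureCounts and DESeq2. Counts were not used here, so limma 3.58.1 (R 4.3.3), with lmFit and a two-sided eBayes test with a trend, was run on log2(TPM + 0.1) and takes the place of a count test. On this scale fold changes of genes with low values are understated. The p-values were adjusted with Benjamini-Hochberg over every gene that 1 or more of the fitted libraries has above 0 TPM. The procedure was also run on simulated data in which no library stood apart. That run does not show how many true changes the RT112 test would miss.

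Stranded mRNA libraries were read in single reads of 75 bases. TPM keeps no depth, so the depth was estimated from the steps between low FPKM values of short genes (transcripts of 300 to 700 bases) within 20 to 45 M reads, and reads per gene are upper estimates from the longest GENCODE transcript that cover counting error only. Promoter windows and positions are from RefSeq (GRCh38.p14), matched by symbol. Summaries and figures were made with matplotlib 3.10.9, pandas 2.3.3 and numpy 2.4.6 under Python 3.11.15.

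The members and lists were chosen with earlier results of these data known. Named are the 10 genes, up to 2 genes per list and direction with the largest called line difference that average 1 TPM or more, and the 5 genes averaging 10 TPM or more that are most like TPM4. Another item under the rule was left out. Marker genes and SRF are given beside results outside this rule. As alternatives, FPKM, pseudocounts of 0.01 or 1 TPM, a minimum mean of 1 TPM, median ratio scaling, no trend, other samples in the fit, an interaction term, a replicate block and the omission of each library were tried.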

Additional observations from a re-analysis of the deposited data

How the results depend on the processing

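Under alternative settings, 293 of 300 tested differences of the 10 genes kept their direction and side of the threshold, 95 of 104 counts stayed within 1.5 times, and 76 of 80 untested UM-UC-3 values moved by less than the replicate spread. Of these 80, 9 turned in sign, for TPM1, TPM2, TPM3, TAGLN and CALD1. With 1 library left out they ran from -0.00689 to 0.0770 for TPM1, -0.0829 to 0.0569 for TPM2, -0.0559 to 0.0716 for TPM3, -0.0252 to 0.738 for TAGLN and -0.00539 to 0.0179 for CALD1. In RT112, 1 fit over all 8 libraries called 2 genes in place of 0, CH507-9B2.4 and CH507-513H4.5, neither one of the 10 (both named after their values were seen). With 1 library left out, the RT112 difference of TPM2 ran from -0.256 to 0.194, above 0 without Scr replicate 1 and without siPAI-1 replicate 1 (0.0148), and that of TPM3 from -0.0848 to 0.0311, above 0 without siPAI-1 replicate 1. The line difference of ACTN1 lay between -0.0186, where RT112 siPAI-1 replicate 1 was left out, and 0.154, and was -0.0541 in the Scr libraries alone. TPM4 in UM-UC-3 moved from 0.35 to 0.346 with FPKM and to 0.359 with median ratio scaling, beyond its very small replicate SD. MYL9 in UM-UC-3 was -0.37 with a pseudocount of 1 TPM and -1.104 with 0.01 TPM. With median ratio scaling the line difference was 0.0525 in place of 0.0920 for ACTN4 and 0.0589 in place of 0.0983 for ACTN1.

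Leaving out 1 library loosens the rule of no overlap. The genes with siPAI-1 above Scr were then 1 to 5 and below Scr 4 to 7 in UM-UC-3, most of them above without Scr replicate 2 (5) and below without Scr replicate 1 (7), where 28.5% and 32.0% of all genes were. In RT112 they were 0 to 2 above and 6 to 8 below, with 6 below without siPAI-1 replicate 1, where 31.2% of all genes were. Called members between the lines were 8 or 9 under every alternative. Without RT112 siPAI-1 replicate 1, the turnover and capping genes called higher in RT112 were 2 in place of 1, an alternative chosen after seeing the data. The causes were not tested.

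The labels do not say whether libraries with the same replicate number belong together. The replicate differences had a correlation of 0.0559 for UM-UC-3 and of -0.0456 for RT112. These values show no pairing but cannot exclude it. With the replicate block, limma called 0 genes in RT112. An unadjusted p under 0.05 was reached there by 444 higher and 365 lower genes, 3 of the 10 among the latter. Between the lines the block gave 6219 genes higher in UM-UC-3 and 5966 higher in RT112, and 8 of the 10 genes. The fits that left out 1 library assume that the lone library of its group varies like the others. Reads limit TPM2 in RT112 and MYL9 and TAGLN in UM-UC-3.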

Other observations

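The genes most like TPM4 across the 8 libraries, by Pearson r of log2(TPM + 0.1) centred on each line's mean among 8607 genes averaging 10 TPM or more, were EMP1 (r = 0.979), DCBLD1 (0.964), FAM104B (0.951), USP9X (0.945) and RBPJ (0.941). These values share the libraries in which TPM4 was noticed and are given as a description. In UM-UC-3, EMP1, an epithelial membrane protein, had 115 and 116 TPM under Scr and 138 and 134 TPM under siPAI-1. In RT112 it had 433 and 419 TPM under Scr and 353 and 406 TPM under siPAI-1. For DCBLD1 the UM-UC-3 values were 59.5 and 58.9 TPM under Scr and 72.6 and 72.3 TPM under siPAI-1, and in RT112 it had 12.6 and 12.2 TPM under Scr and 10.4 and 13.3 TPM under siPAI-1.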
